A study of Mus musculus with 13 samples.

Results

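The Hes and Hey genes encode basic helix-loop-helix (bHLH) transcriptional repressors. All 9 genes of the group were followed here: Hes1, Hes2, Hes3, Hes5, Hes6, Hes7, Hey1, Hey2 and Heyl. They were chosen by family membership, and not by any measured value, though earlier results of these data were known. The choice was made out of 21951 protein-coding genes of the GENCODE M21 annotation on the mouse mm10 (GRCm38) build. For each gene, the listed H3K4me3 and H3K27me3 peaks within 2 kb of a transcription start site (TSS) or in the gene were collected. OLIG2 peaks were collected in the gene and within 50 kb of it.

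The series followed oligodendrocyte development over 3 stages, each with 1 library per measurement, all from cells labelled untreated. Neural stem cells (NSCs) were bought as a culture from embryonic day 14.5 CD-1 cortex and kept in EGF and FGF, although their strain label reads C57BL/6. Oligodendrocyte precursor cells (OPCs) and newly formed oligodendrocytes (NFOs) were immunopanned from the brains of C57BL/6 mice at postnatal day 7, with antibodies to PDGFRα and GalC. Of the 13 samples, 10 were used: H3K4me3 and H3K27me3 chromatin immunoprecipitation (ChIP) in each stage, OLIG2 ChIP in OPCs and NFOs, and RNA immunoprecipitation (RIP) with OLIG2 antibody or control IgG. The title of the RIP control reads input, and the study's methods give it as IgG. With 1 library per group no difference between stages has a replicate check, no test was possible, and the peak lists give no sequencing depth.

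Hes and Hey proteins carry an Orange domain behind the bHLH domain and, in most of them, a carboxy-terminal motif that recruits Groucho corepressors. Several are direct targets of Notch: the cleaved receptor joins the DNA-binding protein Rbpj on their promoters and switches them on. Hes1 and Hes5 are known for keeping neural progenitors undifferentiated by repressing proneural bHLH genes, and Notch signalling to the oligodendrocyte lineage is known to hold back maturation. H3K4me3 marks promoters that are active or ready for use, H3K27me3 is the mark of Polycomb repression, and a domain with both is called bivalent. OLIG2 is itself a bHLH factor and binds the E-box, CANNTG.

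RefSeq promoter windows (250 bases before to 50 after a start, GRCm38) matched 4 of the 9 genes, Hes5, Hes6, Hes7 and Hey2, with 5 windows in all. They were searched on both strands for the core of the Rbpj site, TGGGAA, which 25.6% of 32851 windows hold. The Hes5 window held 2 cores, the Hey2 window 2, the Hes7 window 1 and neither Hes6 window any. The stretches below lie upstream of the start and outside annotated untranslated regions, read 5′ to 3′ on the strand of the gene, with Rbpj cores in capitals. The Hes5 and Hey2 stretches are shown because these genes, both with Rbpj cores, differed in chromatin, and the Hes6 stretch because it had no H3K4me3 peak in NFOs.
Hes5 promoter, chr4:154960673-154960922 (+): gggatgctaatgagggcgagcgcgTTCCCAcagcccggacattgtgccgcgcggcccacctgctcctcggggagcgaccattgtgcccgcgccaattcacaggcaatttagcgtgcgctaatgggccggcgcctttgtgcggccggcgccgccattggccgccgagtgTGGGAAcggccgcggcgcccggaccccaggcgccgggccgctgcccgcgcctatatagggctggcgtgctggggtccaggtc
Hey2 promoter, chr10:30842802-30843033 (-): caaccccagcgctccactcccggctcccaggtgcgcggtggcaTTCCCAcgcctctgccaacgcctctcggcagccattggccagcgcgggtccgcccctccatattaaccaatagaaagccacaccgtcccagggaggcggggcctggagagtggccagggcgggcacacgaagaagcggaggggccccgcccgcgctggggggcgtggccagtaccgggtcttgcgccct
Hes6 promoter, chr1:91413223-91413472 (-): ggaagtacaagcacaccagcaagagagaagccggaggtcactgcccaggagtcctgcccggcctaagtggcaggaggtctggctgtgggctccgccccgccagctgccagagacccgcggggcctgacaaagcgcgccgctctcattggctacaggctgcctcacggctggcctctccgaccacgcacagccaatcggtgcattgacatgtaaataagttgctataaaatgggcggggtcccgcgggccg
The Hes5 stretch thus shows both of its cores, and the Hey2 stretch shows 1 of its 2. The Hes5 and Hey2 windows were also rich in G and C, at 72.7% and 72.0%, against a median of 52.7% over all windows. For the ratio of observed to expected CpG, 95.8% of all windows lay below Hes5 (1.04) and 74.7% below Hey2 (0.746). The E-box was present in all 5 windows, 1 to 3 times, and in 72.3% of all windows.

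In the cells, the members differed in the marks listed at them. Hes1, Hes5, Hes7 and Hey1 had H3K4me3 peaks in every stage and Hes6 in NSCs and OPCs alone. None of these genes had an H3K27me3 peak in any stage. Hey2 carried both marks, overlapping, in every stage. Hes2 carried H3K27me3 in every stage, with H3K4me3 in NSCs alone. Hes3 also had a listed H3K27me3 peak in every stage, but the OPC peak missed the filter of the study's methods and the NSC peak lay 2076 bp from the nearest start. Heyl had H3K27me3 in OPCs alone, and the peak over its TSS missed the same filter. An H3K4me3 peak was listed at 7 of the 9 genes in NSCs, against 67.0% of all protein-coding genes. The count was 6 in OPCs, with 62.5% of all genes, and 5 in NFOs, with 47.8%. An H3K27me3 peak was listed at 3 members in NSCs (33.7% of all genes), 4 in OPCs (24.7%) and 3 in NFOs (13.2%). The H3K4me3 counts were thus near the shares of all genes. For H3K27me3, the share of all genes was lower in NFOs than in NSCs, while the count of members was the same in both. These calls admit peaks anywhere in the gene, and the median length was 3652 bp for members and 17403 bp for protein-coding genes. Within 2 kb of the coding TSS, H3K27me3 was listed at 2311, 2961 and 1766 protein-coding genes in NSCs, OPCs and NFOs. Within 2 kb of any TSS alone, it was listed at 2, 4 and 3 members. The equal counts are thus no result about the members. The lists held 33292, 18284 and 21736 H3K4me3 peaks and 36069, 29417 and 12688 H3K27me3 peaks in NSCs, OPCs and NFOs.

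**Figure D1:**
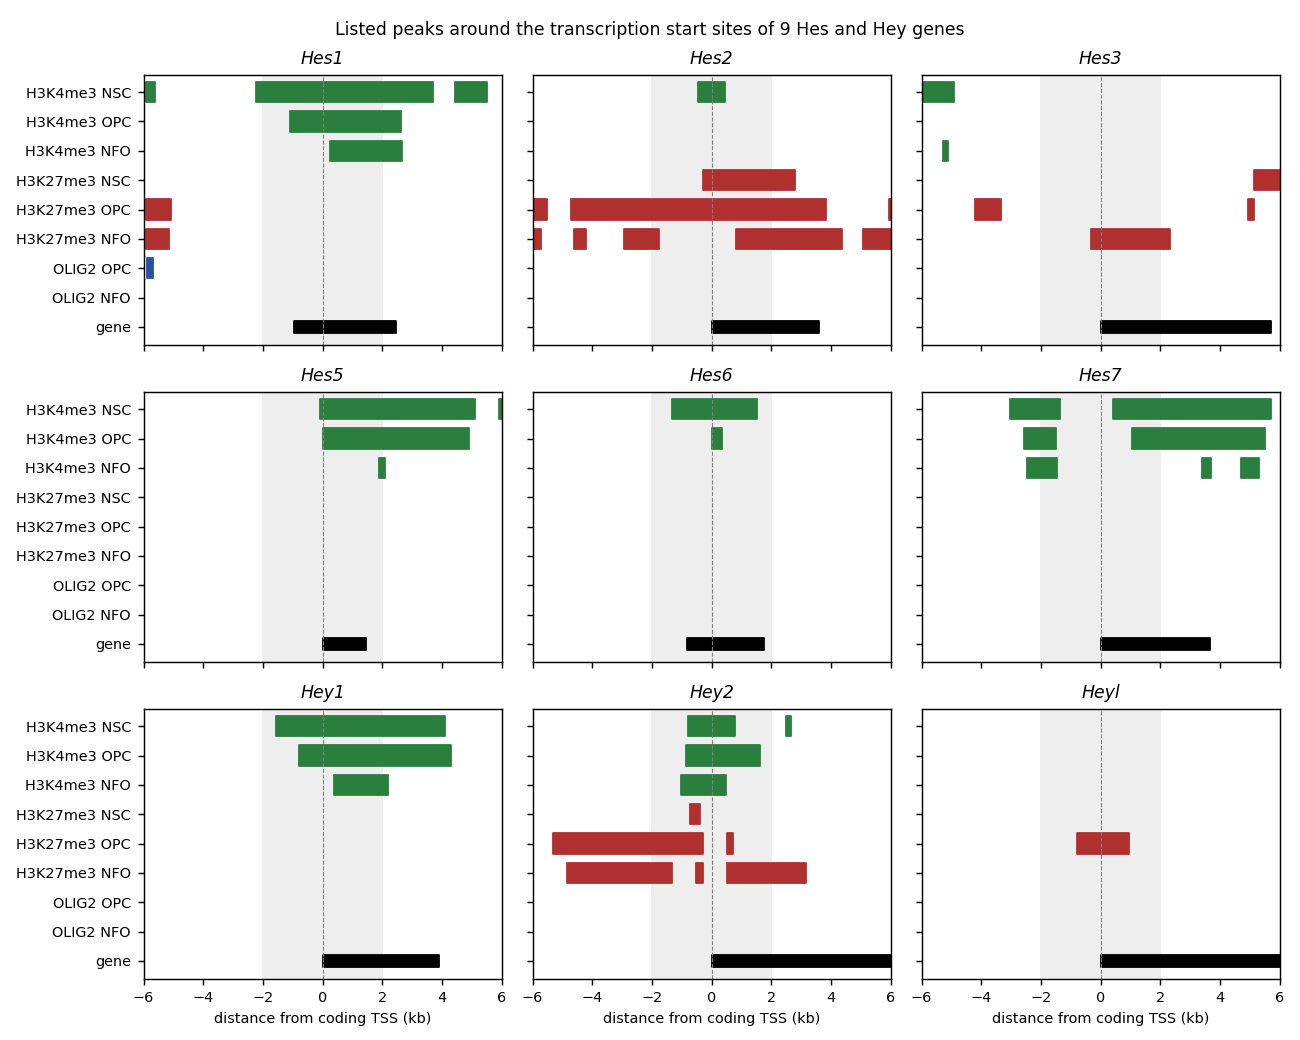
Listed peaks of each library (rows) against distance from the coding TSS in kb, in the direction of transcription, for each of the 9 genes; the black bar is the gene and grey marks 2 kb on either side of the TSS. Green H3K4me3 bars are alone at Hes1, Hes5, Hes6, Hes7 and Hey1 within the grey zone, and lie beside red H3K27me3 bars at Hey2 in every stage.

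The markers of the cells were checked by the same H3K4me3 calls. H3K4me3 was listed at 5 of 5 NSC markers in NSCs and OPCs and at 2 in NFOs, and at 5 of 5 OPC markers in every stage. Among oligodendrocyte markers, Cnp had a peak in all 3 stages, and Mog, Mag, Enpp6 and Mobp had no listed H3K4me3 peak in any stage, NFOs included. Neuronal markers were at 5, 5 and 3 of 5 in NSCs, OPCs and NFOs, microglial markers at 1, 2 and 1 of 5, astrocytic at 3, 2 and 1 of 5, and endothelial at 2, 1 and 1 of 4. The part of other cells in the results below was not tested. The antibody label of all 6 histone libraries named the other mark than the title. The titles were followed, and 47.7% to 71.9% of the peaks titled H3K4me3 lay within 2 kb of a protein-coding TSS, against 10.0% to 24.0% of those titled H3K27me3.

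Hes1, on chromosome 16 at 30064384 to 30067796 of the plus strand (ENSMUSG00000022528.8), is the best known Notch effector of neural progenitors. Its H3K4me3 peak had a fold enrichment over control of 12.8, 8.49 and 7.38 across NSCs, OPCs and NFOs. The value was thus highest in NSCs and lowest in NFOs, as was the median over all H3K4me3 peaks within 2 kb of a protein-coding TSS, at 7.49, 6.25 and 4.71. The same order at Hey1, Hes5 and Hes7 is to be read against this list-wide decline. The peak was 5923, 3708 and 2397 bp wide across NSCs, OPCs and NFOs. Widths are not on 1 scale across stages, since peak names in the lists show single-end reads for NSCs and paired-end reads for the other stages. Rank within a list is therefore given as well. Among the peaks of its own list within 2 kb of a protein-coding TSS, 99.0% were narrower in NSCs, 97.4% in OPCs and 98.6% in NFOs. Hes1 thus kept one of the widest promoter peaks of each stage. In NSCs and OPCs the peak spanned the coding TSS, whereas in NFOs it began 245 bp downstream of it.

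Hey1, on chromosome 3 at 8663359 to 8667256 of the minus strand (ENSMUSG00000040289.8), is a Notch effector best known from the heart and vessels. Its H3K4me3 fold enrichment was 8.78, 6.63 and 5.30 across NSCs, OPCs and NFOs, the same order as for Hes1. Its single peak spanned the whole gene in NSCs (5647 bp) and OPCs (5092 bp), and in NFOs it was 1814 bp and began 365 bp downstream of the TSS. Of the promoter peaks of the list, 98.8%, 99.3% and 96.2% were narrower. No H3K27me3 peak was listed at Hey1 in any stage.

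Hes5, on chromosome 4 at 154960923 to 154962371 of the plus strand (ENSMUSG00000048001.7), is the second Notch effector of neural progenitors and carries the Rbpj cores shown above. In NSCs an H3K4me3 peak of fold enrichment 9.43 ran 5195 bp from 96 bp upstream of the TSS. In OPCs the peak had a fold enrichment of 7.79 and ran 4881 bp from 8 bp downstream of it. Both peaks also covered the start site of the neighbour Pank4, 3200 bp downstream of the Hes5 TSS. In NFOs the only listed peak was 192 bp wide with a fold enrichment of 3.89, and it began 1900 bp downstream of the TSS, beyond the 3′ end of Hes5. It was counted because it lay 1852 bp from the nearest annotated Hes5 start, just inside the limit of 2 kb. The Hes5 promoter itself was thus without listed H3K4me3 in NFOs.

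Hes6, on chromosome 1 at 91411483 to 91414038 of the minus strand (ENSMUSG00000067071.8), differs in function from its relatives, since it inhibits Hes1 and favours neuronal differentiation. Its fold enrichment was 5.84 in NSCs and 5.84 in OPCs, and no peak was listed in NFOs. Equal enrichment went with unequal extent: the NSC peak was 2838 bp wide and spanned every Hes6 start, and the OPC peak was 331 bp wide and began 8 bp downstream of the coding TSS. Of the promoter peaks of the lists, 80.0% were narrower than the Hes6 peak in NSCs and 6.99% in OPCs.

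Hes7, on chromosome 11 at 69120404 to 69124055 of the plus strand (ENSMUSG00000023781.2), is the oscillator of the somite clock. No listed peak of either mark covered its TSS in any stage. H3K4me3 lay to both sides of it. The upstream peak had a fold enrichment of 11.6, 8.41 and 4.84 across NSCs, OPCs and NFOs, and its near edge was 1360, 1490 and 1471 bp upstream. The downstream peak had values of 7.70, 5.96 and 5.13 across NSCs, OPCs and NFOs and began 426, 1048 and 3397 bp downstream. In NSCs and OPCs it also covered the start of 9130213A22Rik, a protein-coding gene on the other strand that overlaps Hes7, and that of Aloxe3, 5492 bp downstream of the Hes7 TSS. The downstream peak of NSCs and OPCs thus cannot be assigned to Hes7 over these neighbours. The upstream peaks and the downstream NFO peak held no annotated start of another gene, and none of Hes7.

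**Figure D2:**
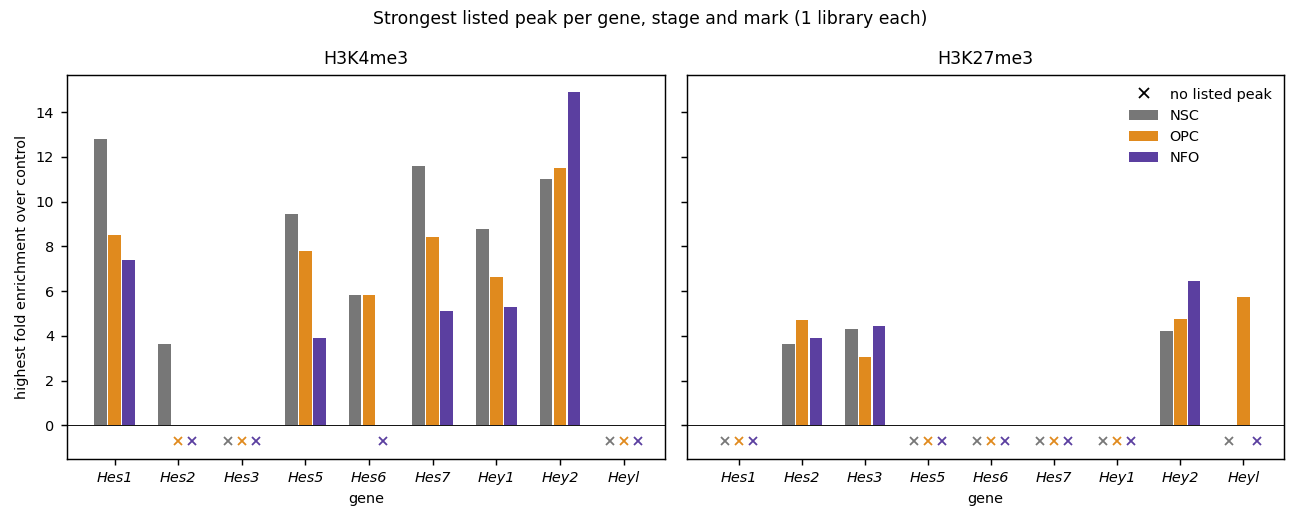
Highest fold enrichment over control among the listed peaks within 2 kb of a TSS or in the gene, for each gene and stage; the left panel is H3K4me3, the right panel H3K27me3, bars are single libraries and crosses mark genes with no listed peak. H3K4me3 bars descend from NSC to NFO at Hes1, Hes5, Hes7 and Hey1 and ascend at Hey2, from 11 to 14.9, while the median of all promoter peaks descends from 7.49 to 4.71.

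The peaks over start sites were set beside those of all genes. An H3K4me3 peak lay over the outermost coding TSS of 6 members in NSCs (Hes1, Hes2, Hes5, Hes6, Hey1 and Hey2), against 54.5% of all genes. In OPCs it lay over 3 (Hes1, Hey1 and Hey2), against 44.5%, and in NFOs over Hey2 alone, against 12.6%. The OPC peaks of Hes5 and Hes6 and the NFO peaks of Hes1 and Hey1 did cover another annotated start of their own gene. Of the 7 members with H3K4me3 in NSCs, 2 (Hes2 and Hes6) had none in NFOs, against 31.9% of all such genes. Neither Hes3 nor Heyl, the 2 members without it in NSCs, had it later, against 9.39% of such genes. These counts were near the shares of all genes.

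The number of bases under H3K4me3 peaks within 2 kb of the coding TSS gave the same course with more detail. At Hes1 it was 4001 bp in NSCs, the whole window, then 3087 bp for OPCs and 1756 bp for NFOs. At Hey1 it was 3555, 2802 and 1636 bp, and at Hes5 2097, 1993 and 101 bp. Over the 8610 protein-coding genes with coverage in both stages, NFO coverage was lower in 98.4%, with a median ratio of NFO to NSC of 0.282. The ratio was 0.439 at Hes1, 0.460 at Hey1, 0.239 at Hes7 and 0.0482 at Hes5. The 101 bp at Hes5 in NFOs exceeded the cover of 0.565% of the genes marked in that stage. Hey2 was at 1573, 2486 and 1529 bp across NSCs, OPCs and NFOs, a ratio of 0.972. Hey2 thus had a wider H3K4me3 cover in OPCs than in NSCs, while 92.2% of the 12414 genes covered in both stages had a narrower one.

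**Figure D3:**
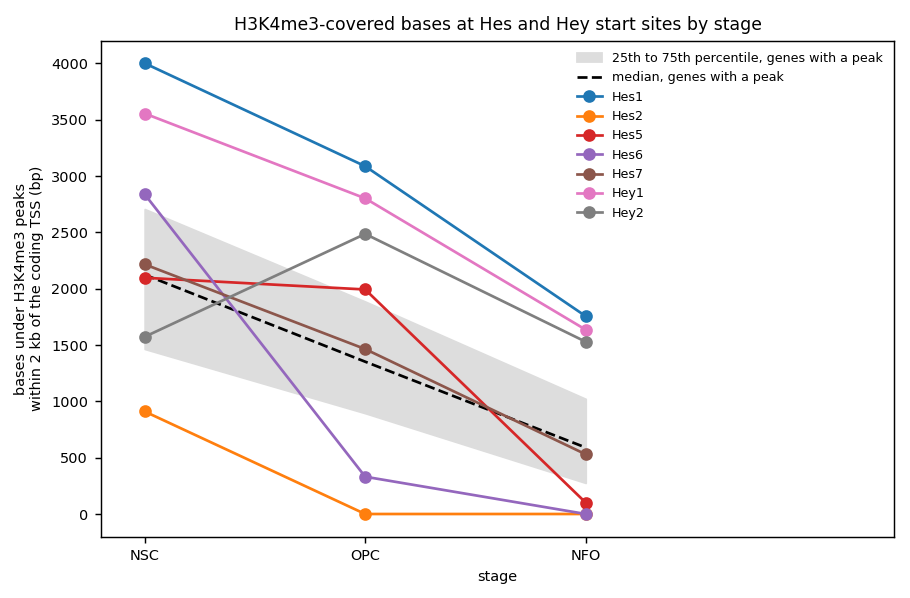
Bases under H3K4me3 peaks within 2 kb of the coding TSS (y axis, bp) in each stage (x axis) for the 7 genes with any; the dashed line and grey band are the median and the 25th to 75th percentile of protein-coding genes with a peak in that stage. Hes1 and Hey1 lie above the band in every stage, Hes5 drops below it at 101 bp in NFOs and Hey2 is above it in OPCs and NFOs.

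Hey2, on chromosome 10 at 30832359 to 30842801 of the minus strand (ENSMUSG00000019789.9), is a Notch effector known from heart, vessels and inner ear. It was the only member with a bivalent domain in every stage. The study's methods do not call a gene bivalent where a peak of 1 mark alone lies within 2 kb of a TSS. Under that rule, with all listed peaks, Hey2 was bivalent in OPCs alone, since such peaks stood beside the domain in NSCs and NFOs. The NSC one, an H3K4me3 peak of fold enrichment 3.31, missed the filter of the study's methods, and those of NFOs passed it. The highest H3K4me3 fold enrichment at Hey2 was 11, 11.5 and 14.9 across NSCs, OPCs and NFOs, the reverse order to that of Hes1. These values exceeded those of 86.9%, 94.6% and 92.6% of the promoter peaks of their own lists, so that by rank the OPC peak stood highest. The strongest H3K4me3 peak of each stage spanned the TSS. The highest H3K27me3 fold enrichment at Hey2 was 4.24, 4.75 and 6.44 across NSCs, OPCs and NFOs, so that the fold enrichment of both marks was highest in NFOs. The extent of H3K27me3 followed the same order: within 2 kb on either side of the TSS it covered 327, 1912 and 2379 bp, stage by stage. The median over all genes with such cover also rose, at 503, 614 and 828 bp. Of those genes, 33.8% in NSCs, 82.9% in OPCs and 82.8% in NFOs had less cover than Hey2. By rank, the extent at Hey2 was thus no greater in NFOs than in OPCs.

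In detail, H3K27me3 lay around the coding TSS of Hey2 and was not listed over it in any stage. In NFOs a peak did cover the second annotated start, that of a transcript with a retained intron. In NSCs 1 peak lay 716 to 390 bp upstream, inside the H3K4me3 peak. In OPCs a peak of 5028 bp reached to 280 bp upstream and one of 191 bp began 518 bp downstream. In NFOs peaks ended 307 bp upstream and began 521 bp downstream. H3K4me3 and H3K27me3 overlapped by 327 bp in NSCs, by 191 and 580 bp in OPCs and by 233 bp in NFOs. In a mixed population, an overlap of peaks cannot be told apart from 2 groups of cells with 1 mark each.

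Hes2, on chromosome 4 at 152158867 to 152162469 of the plus strand (ENSMUSG00000028940.2), was bivalent in NSCs. The H3K4me3 peak there had a fold enrichment of 3.65, above 9.41% of the promoter peaks of the list. It overlapped an H3K27me3 peak of fold enrichment 3.63 by 746 bp. No H3K4me3 peak was listed at Hes2 in OPCs or NFOs. H3K27me3 in OPCs was a domain of 8549 bp with a fold enrichment of 4.72 that covered the whole gene, and 97.2% of the promoter peaks of that list were narrower. In NFOs it was 2 peaks to either side of the TSS, with fold enrichments of 3.34 and 3.90, the second beginning 825 bp downstream. Bivalent domains within 2 kb of a TSS were thus found at 2 members in NSCs (9.40% of all genes), 1 in OPCs (5.85%) and 1 in NFOs (3.34%).

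Hes3, on chromosome 4 at 152285972 to 152291662 of the minus strand (ENSMUSG00000028946.7), is a marker of neuroepithelial cells and lies 123502 bp from Hes2. H3K27me3 was at its 3′ end in NSCs (fold enrichment 4.29, beginning 5133 bp downstream of the TSS) and in OPCs (3.04, beginning 4950 bp downstream). In NFOs the peak lay over the TSS instead, from 333 bp upstream to 2319 bp downstream, with a fold enrichment of 4.46. The OPC peak was 177 bp wide and lay close to the limit of the list, at 1.02 on the −log10 FDR scale. An NSC H3K4me3 peak of 162 bp and fold enrichment 3.97 lay beyond the 3′ end, 3317 bp from the nearest Hes3 start, and was not counted. OPC H3K27me3 peaks of fold enrichment 7.94 beyond the 3′ end and 4.01 upstream, 3356 and 3350 bp from the nearest start, were likewise outside the limit.

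Heyl, on chromosome 4 at 123233556 to 123249875 of the plus strand (ENSMUSG00000032744.4), is a Notch3-responsive gene of vascular smooth muscle. It had no listed peak of either mark in NSCs or NFOs. In OPCs an H3K27me3 peak of 1746 bp and fold enrichment 3.47 lay over its TSS, and one of 191 bp and fold enrichment 5.74 lay 9219 bp downstream in the gene. The peak over the TSS missed the fold enrichment above 3.5 that the study's methods ask for. The other passed, but lay 3018 bp from the nearest Heyl start. H3K27me3 without H3K4me3 was thus found at 1 member in NSCs (6.14% of all genes), Hes3. It was found at 3 in OPCs (7.29%), Hes2, Hes3 and Heyl, and at 2 in NFOs (5.73%), Hes2 and Hes3. Hes2, Hes3, Hes5 and Heyl are on the same chromosome, and Hes5, 2669260 bp beyond Hes3, did not share the H3K27me3 of its neighbours in the family.

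Genes with the most similar values were sought for members with a peak within 2 kb of a TSS in at least 4 of the 6 lists, by the Euclidean distance over the 6 highest fold enrichments on the log2(1 + value) scale. For Hey2 they were Zfp518a, at a distance of 0.40, and Zic1, a zinc finger factor of neural patterning, at 0.51. Zic1 had H3K4me3 fold enrichments of 12.8, 9.19 and 14.0 in NSCs, OPCs and NFOs and H3K27me3 values of 3.77, 5.82 and 5.40. For Hes2 they were Cilp2 at 0.14 and Ecel1 at 0.16, both with H3K4me3 in NSCs alone.

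The other genes of the pathway were counted by the same calls. Of 24 genes of the Notch pathway, H3K4me3 was listed at 23, 23 and 15 across NSCs, OPCs and NFOs, and H3K27me3 at 5, 6 and 4. Dll4, a Notch ligand, had H3K27me3 in every stage and no H3K4me3 in NFOs. Of 5 genes of the Groucho family, 5, 5 and 4 had H3K4me3 and 1, 3 and 1 had H3K27me3. Of the 3 other bHLH-Orange genes, Bhlhe40 and Bhlhe41 had H3K4me3 in every stage and Helt in NSCs, and Helt had H3K27me3 in every stage. Of 12 proneural and Olig bHLH genes, among them the targets of Hes repression, 9, 8 and 7 had H3K4me3 and 7, 8 and 8 had H3K27me3. Bivalent domains were listed at 6, 6 and 5 of these 12, including Atoh1 and Neurod1 in every stage, against 9.40%, 5.85% and 3.34% of all genes. Neurog1 was counted in OPCs and NFOs because its domain reached within 2 kb of a TSS. No H3K4me3 peak itself was listed within 2 kb of a Neurog1 TSS or in the gene in those stages. All 4 Id genes, which encode bHLH partners without a DNA-binding region, had H3K4me3 in NSCs and OPCs and 3 of them in NFOs.

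OLIG2 was not listed inside any of the 9 genes. No OLIG2 peak lay in a member in OPCs or in NFOs, against 13.7% and 23.9% of all protein-coding genes. The members are short, at 1449 to 16320 bp, against a median of 17403 bp for protein-coding genes. Within 50 kb of a gene, OPC peaks were listed for 6 members (Hes1, Hes2, Hes3, Hes5, Hey2 and Heyl), against 42.3% of all genes. NFO peaks were listed for 5 (Hes2, Hes3, Hes7, Hey2 and Heyl), against 65.1%. There were 9 such peaks in the OPC list and 8 in the NFO list, and 2 places were in both. Hes6 and Hey1 had none in either list: their nearest OPC peaks were 118 and 51.4 kb from the gene and their nearest NFO peaks 87.9 and 79.2 kb. The OLIG2 list of NSCs was not analysed here.

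Hes1 had the nearest upstream peak. In OPCs an OLIG2 peak of fold enrichment 15.4, above 90.0% of its list, lay 4.71 kb upstream of the gene in intergenic DNA. The nearest NFO peak was 98.8 kb away. Peaks at the same place stood in 3 other lists, the H3K4me3 list of NSCs (fold enrichment 3.45), the H3K27me3 list of OPCs (6.36) and the H3K27me3 list of NFOs (3.26). Of these only the OPC peak passed the filter of the study's methods, which asks for a fold enrichment above 3.5. Both H3K27me3 peaks lay outside the 2 kb limit, 4138 and 4193 bp from the nearest Hes1 start. Of all 7384 OPC OLIG2 peaks, 182 (2.46%) overlapped listed H3K27me3 peaks of both OPCs and NFOs.

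Hey2 had an OPC peak of fold enrichment 4.27 at 3.68 kb beyond its 3′ end. It overlapped H3K27me3 peaks of NSCs and OPCs, with fold enrichments of 4.30 and 4.33, as 15.2% and 10.5% of all OPC OLIG2 peaks did. A second OPC peak, of fold enrichment 16.0, lay 28.6 kb upstream, and the single NFO peak, of 4.78, lay 41.9 kb upstream. The peaks of 4.27 and 4.78 missed the fold enrichment above 5 that the study's methods ask for, so that 4 members in place of 5 had an NFO peak within 50 kb under that filter.

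Hes2 had the most peaks. In OPCs a peak of fold enrichment 13.6 lay 5.62 kb downstream, and one of 8.49 lay 29.9 kb downstream in an intron of Acot7. The second was also in the NFO list, with a fold enrichment of 16.6. Further NFO peaks of 9.0 and 7.02 lay 13.7 and 38.1 kb upstream, in an intron and an exon of Espn. Heyl had the other place in both lists, with fold enrichments of 17.3 in OPCs and 11.5 in NFOs, 33.0 kb downstream at the start site of Pabpc4, where H3K4me3 was listed in all 3 stages. Over the whole OPC list, 14.3% of peaks overlapped an NFO peak.

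Hes3 had an OPC peak of fold enrichment 15 at 29.2 kb upstream and an NFO peak of 15 at 24.2 kb downstream. The start sites nearest to them were those of Rnf207 and Gpr153. Hes5 had a single peak, of 8.39 in OPCs at 25.6 kb upstream. Hes7 had a single peak, of 9.39 in NFOs at 11.4 kb downstream, at a start site of Aloxe3. The start site nearest to a peak was that of the member itself for 3 of the peaks named above, those of Hes1 at 4.71 kb, Hes2 at 5.62 kb and Hey2 at 3.68 kb, all from OPCs.

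**Figure D4:**
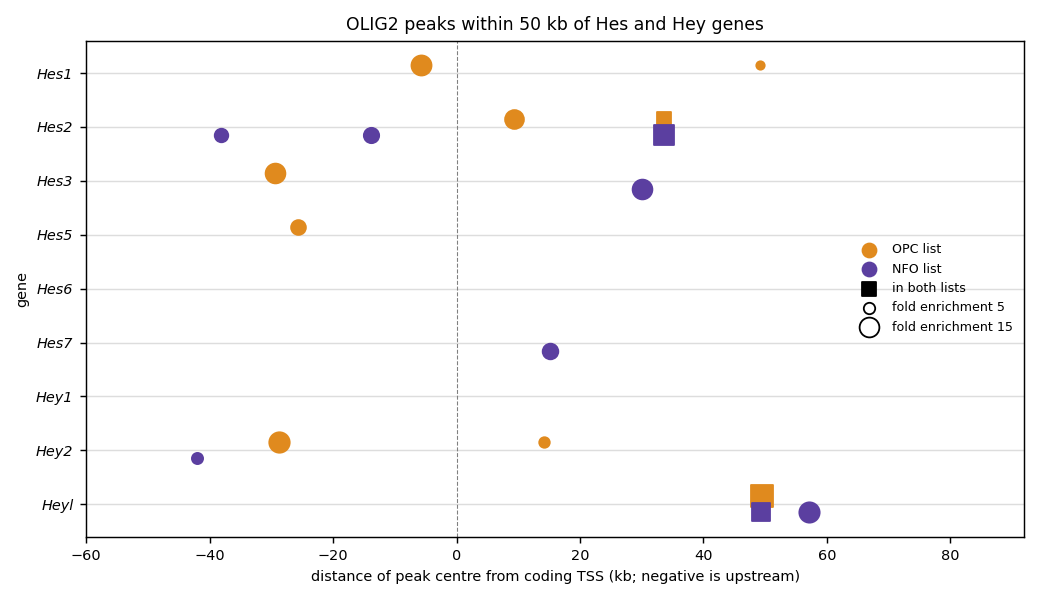
OLIG2 peaks within 50 kb of each gene, by distance of the peak centre from the coding TSS in kb (x axis); colour gives the list, the area of a point is proportional to fold enrichment and squares mark places in both lists. Points near a start site are few, the nearest at Hes1, 5.79 kb upstream in OPCs, and Hes6 and Hey1 have none.

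The letters under 3 of these peaks are shown because they carry the comparisons above: the Hes1 place shared with H3K27me3, the place in both lists near Hes2 and the Hey2 place shared with H3K27me3. They are read on the plus strand, with E-boxes (CANNTG) and any run of 12 or more A or T in capitals.
Hes1 upstream, OPC, chr16:30059441-30059670: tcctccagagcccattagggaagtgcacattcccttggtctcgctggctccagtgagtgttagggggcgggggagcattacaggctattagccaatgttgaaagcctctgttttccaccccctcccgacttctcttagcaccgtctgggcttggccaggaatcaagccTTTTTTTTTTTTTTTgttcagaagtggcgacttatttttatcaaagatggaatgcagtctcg
Hes2 downstream, OPC, chr4:152192380-152192609: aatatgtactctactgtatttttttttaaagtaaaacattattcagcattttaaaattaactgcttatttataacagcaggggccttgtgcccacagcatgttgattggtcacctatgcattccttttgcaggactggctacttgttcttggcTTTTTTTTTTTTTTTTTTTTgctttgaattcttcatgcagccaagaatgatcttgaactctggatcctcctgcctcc
Hey2 downstream, OPC, chr10:30828449-30828678: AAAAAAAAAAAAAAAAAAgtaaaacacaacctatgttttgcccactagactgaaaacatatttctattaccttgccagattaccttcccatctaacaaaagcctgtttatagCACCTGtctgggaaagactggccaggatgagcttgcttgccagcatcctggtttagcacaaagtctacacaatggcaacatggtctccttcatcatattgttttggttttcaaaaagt
The Hes1 and Hes2 stretches held no E-box and the Hey2 stretch held 1. An E-box was present in 5 of the 9 OPC peaks and 4 of the 8 NFO peaks near members, against 70.4% and 69.3% of all peaks of the lists. The form CAGCTG was in 0 and 1 of them, against 13.6% and 10.1%, and CATATG in none, against 6.20% and 6.51%. The N-box CACNAG, a site of Hes proteins, was in 6 and 4, against 34.7% and 32.7%. The core TGGGAA was in 1 and 0, against 19.4% and 18.7%.

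Each of the 3 stretches held a long run of A or T. Such a run of at least 12 bases was present in 7 of the 9 OPC peaks and 5 of the 8 NFO peaks near members. It was present in 67.5% of all 7384 OPC peaks and 65.8% of all 16911 NFO peaks, against 2.73% of 11510469 consecutive genome windows of 230 bases. The centre of the run lay a median of 59.0 bp from the centre of the peak in OPCs and 58.5 bp in NFOs. Among the peaks near members without such a run was that of Hes2 at 5.62 kb downstream in OPCs. The part of these runs in the OLIG2 results was not tested.

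The RIP lists held no site for any member. The labels give the cells as NFOs and the methods of the study as NSCs. The control, titled input, is called IgG here after those methods. A site with p below 0.01 in a transcript was listed for 0 of 9 members with OLIG2 antibody, against 2.53% of all protein-coding genes, and for 0 of 9 with IgG, against 2.55%. No site of either list lay at a member's position on the genome either. With so low a share over all genes, a count of 0 among 9 is no result about the members.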

How the data were processed

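Histone ChIP peaks are deposited as broad peak lists that the authors made with MACS2 after Bowtie2 alignment to mm10, and OLIG2 peaks as SPP lists, each from 1 library against input. The deposited values used are the fold enrichment (ratio to control) and the −log10 FDR of each peak. The RIP lists, made by the authors with ASPeak, hold sites in transcripts with a tag count, a transcript RPKM and a p-value, all deposited as called. The lists give no library depth, and the 3 ChIP input libraries were not used here.

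Peaks were joined to GENCODE M21 genes with Python 3.11.15, NumPy 2.4.6 and pandas 2.3.3, with Matplotlib 3.10.9 for figures. No interval is given for any count. An overlap of 1 bp with the region within 2 kb of any TSS or in the gene counted, and all listed peaks were used. A bivalent domain was the union of overlapping H3K4me3 and H3K27me3 peaks. It counted where any part of it lay within 2 kb of a TSS, so that a peak of either mark could lie farther away. The study's methods also exclude genes with a peak of 1 mark alone, which the main counts here did not. The coding TSS is the outermost 5′ end of a protein-coding transcript. The overlap functions were tested on simulated data, and all simulated states were recovered.

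Named genes were the 9 members, for each member with peaks in at least 4 of 6 lists the 2 nearest genes in fold enrichment, and the first genes in alphabetical order with the state described. The members and the gene lists were chosen with earlier results of these data known. Alternatives were stricter filters, among them the fold enrichment above 3.5 (histone) or 5 (OLIG2) and FDR below 0.05 of the study's methods, other distances and overlaps, and 1 TSS per gene. One marker gene and one peak sequence are not reported here.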

Additional observations from a re-analysis of the deposited data

How the results depend on the processing

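Of 71 recomputed counts of members, 58 stayed within 1.5 times the reported count and 13 did not. Restricting histone peaks to a fold enrichment above 5 left H3K27me3 at 0, 1 and 1 members in NSCs, OPCs and NFOs, from 3, 4 and 3, and bivalent domains at 0 in NSCs and 0 in OPCs, from 2 and 1. The study's methods allow no peak of 1 mark alone within 2 kb. With that rule and all listed peaks, bivalent members were 1 in NSCs (Hes2) and 0 in NFOs, so Hey2 kept the call in OPCs alone. The peak that removed Hey2 in NSCs missed the filter of the study's methods. H3K4me3 within 1 kb of a TSS alone was listed at 3 members in NFOs, from 5. With 5 kb upstream added to the gene, OLIG2 was listed for 1 member in OPCs, Hes1. OLIG2 within 20 kb was listed for 3 members in OPCs and 2 in NFOs, from 6 and 5, within 100 kb for 9 in NFOs, and at a fold enrichment above 10 for 3 in NFOs. These alternatives differ only in the peaks or distances admitted. No share of all genes is given at these settings, so the changed counts are no result about the members. The median fold enrichment of all H3K27me3 peaks within 2 kb of a protein-coding TSS was itself below 5, at 3.72, 4.29 and 4.04 in NSCs, OPCs and NFOs.

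Over all 55450 annotated genes, noncoding ones included, the shares with a peak were lower: 37.1%, 32.5% and 25.8% for H3K4me3 in NSCs, OPCs and NFOs, 21%, 15.9% and 8.04% for H3K27me3, 5.72%, 3.42% and 2.05% for bivalent domains, 32.7% and 54.7% for OLIG2 within 50 kb in OPCs and NFOs, 6.66% and 12% for OLIG2 in the gene, and 1.11% for both RIP lists.

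No paired analysis was possible because each group holds 1 library and no result comes from a test. An absent peak is one not listed at an unknown depth, and the NSC stage cannot be told apart from read type, strain, age or culture.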

Other observations

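Beyond 50 kb, the NFO OLIG2 peak nearest to Hes5 lay 52.3 kb from it (fold enrichment 2.34), and the OPC peak nearest to Hes7 lay 56.8 kb from it (fold enrichment 15.2). Of the RefSeq promoter windows, 3.24% held a run of 12 or more A or T, against 67.5% of the OPC and 65.8% of the NFO OLIG2 peaks over the whole lists. Peaks with such a run had a median fold enrichment of 8.05 in OPCs and 8.63 in NFOs, and peaks without one 7.96 and 7.13. The longest run under a peak near a member was 27 bases, at the OPC peak of fold enrichment 15 upstream of Hes3.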
